A study of Arabidopsis thaliana with 6 samples.

Results

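Cell division genes were followed in an Arabidopsis thaliana cell culture exposed to phytoprostane A1 (PPA1), a reactive oxylipin that arises from a fatty acid by oxidation without an enzyme. The group holds 6 probe sets, chosen by their identifiers, of 22810 on the Affymetrix ATH1 array, of which 22746 were tested after the manufacturer's controls were set aside. They measure KNOLLE (AT1G08560, probe set 264802_at), CYCB1;4 (AT2G26760, 267618_at), CDKB2;1 (AT1G76540, 259978_at), AUR1 (AT4G32830, 253403_at), TOPII (AT3G23890, 256864_at) and CYCD3;1 (AT4G34160, 253247_at). Treated cells received 75 µM PPA1 and control cells 0.5% methanol in water, and both were harvested after 4 h, with 3 replicates each, which the labels call independent. The culture was mixotrophic, so its cells photosynthesise and also take up organic carbon. It is a cell culture rather than a plant, and neither the ecotype of the cells nor the methanol content of the PPA1 treatment is given in the sources used here. What separates these replicates is not stated either, and the spread behind each p-value is that among these cultures or extracts, which may be technical. Median signals were 49.9 to 51.2 on the control arrays and 42.04 to 45.0 on the PPA1 arrays, in the authors' normalized intensity units. Leaving out PPA1 replicate 1 raised the number of probe sets called lower (limma adjusted p under 0.05) from 226 to 1708. Leaving out any other array gave 0. Values are therefore also given without PPA1 replicate 1.

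A dividing plant cell passes from G1 into DNA synthesis (S phase), then through G2 into mitosis (M phase), and finally builds a new wall, the cell plate, between the daughter nuclei. Cyclins bind and activate cyclin-dependent kinases at each step, and many transcripts of mitosis and cytokinesis accumulate mainly from late G2 to M phase. The abundance of such transcripts in a culture therefore reflects both how many cells are in that window and how strongly the genes are expressed there. In RNA from bulk cells, fewer dividing cells and less RNA per dividing cell cannot be told apart.

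After 4 h of PPA1, the transcripts of the mitotic kinases CDKB2;1 and AUR1 and of the cytokinesis syntaxin KNOLLE fell to between 22.7% and 34.0% of the mean control signal. The other mitotic member, CYCB1;4, and the DNA topoisomerase TOPII had lower signals in every treated array than in any control, but did not pass the test across all probe sets. The G1 cyclin CYCD3;1 had overlapping signals in both conditions. Of the 6 members, 3 were called lower and 0 higher (limma, Benjamini-Hochberg adjusted p under 0.05 over all tested probe sets), where 0.994% of all tested probe sets were called lower and 0.809% higher. At an unadjusted p under 0.05 limma had 5 of 6 members lower, against 14.8% of all tested probe sets. The members had been picked with earlier results of these arrays known, so these counts describe them and are not independent evidence of a direction.

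**Figure D1:**
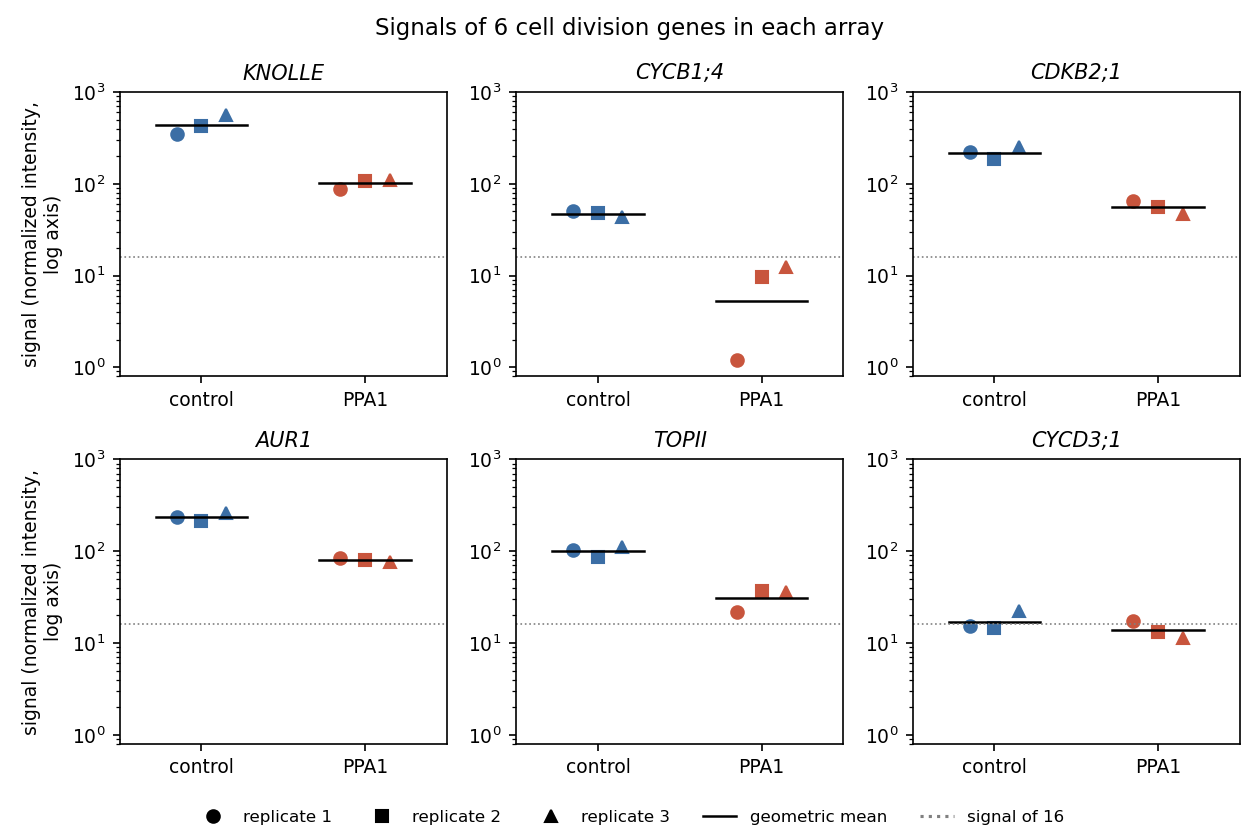
Signal (authors' normalized intensity, log axis) of each of the 6 genes in each of the 6 arrays, with a symbol per replicate, a bar at the geometric mean and a dotted line at a signal of 16, below which probe sets were treated as dim. The control and PPA1 signals are apart for KNOLLE, CYCB1;4, CDKB2;1, AUR1 and TOPII and overlap for CYCD3;1.

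CYCD3;1 encodes a D-type cyclin, which acts with the kinase CDKA in G1 and links division to cytokinin and sugar supply. Its signals were 15.2, 14.4 and 22.5 in control replicates 1 to 3 and 17.5, 13.1 and 11.4 in PPA1 replicates 1 to 3. These signals lie on both sides of 16, with control replicate 3 the highest and PPA1 replicate 3 the lowest, and the groups overlapped. The log2 change (PPA1 minus control) was -0.31 with a 95% interval from -1.01 to 0.40 (limma adjusted p = 0.549, n = 3 each), an interval that still includes a halving. With quantile normalization the change was 0.00097, and after median centring of the arrays it was -0.09.

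TOPII encodes DNA topoisomerase II, which untangles DNA molecules during replication and before sister chromatids separate. Its signals were 103.4, 86.7 and 112.1 in the controls and 21.8, 37.0 and 35.7 after PPA1. Every treated array lay below every control, and PPA1 replicate 1 was the lowest. The mean signal after PPA1 was 31.3% of the control mean. The log2 change was -1.71 with a standard error of 0.28 and a 95% interval from -2.41 to -1.003, and the limma adjusted p of 0.0530 missed the threshold. Over the alternatives tried this p ran from 0.00254 to 0.182, and TOPII was called in 8 of 18 of them, among them the robust variance trend (0.0116) and the fit without PPA1 replicate 1 (0.0206).

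CYCB1;4 encodes a B-type cyclin, a class that activates cyclin-dependent kinases at entry into mitosis. Its signals were 49.9, 47.5 and 43.6 in the controls, the tightest of the 6 members with a coefficient of variation of 6.75%. After PPA1 they were 1.195, 9.74 and 12.2. All treated arrays lay below a signal of 16 and below every control, and PPA1 replicate 1 was the lowest of them by a wide margin. The log2 change was -3.17, but its standard error was 0.91, and the 95% interval ran from -5.41 to -0.93 (limma adjusted p = 0.125). Without PPA1 replicate 1 the change was -2.10 and passed (limma adjusted p = 0.0111), where 7.51% of all tested probe sets were called lower. With a constant of 32 added before the log, which damps dim values, the change was -1.002 and passed (limma adjusted p = 0.0141). There 5.93% of all tested probe sets were called lower. CYCB1;4 was called in only 4 of 15 alternatives, with limma adjusted p up to 0.306. The size of the CYCB1;4 change thus depended on 1 array and on the treatment of dim signals. Its direction was the same in each of the 15 alternatives that gave a value. With every treated signal below every control, leaving out an array or adding a constant could not have reversed that direction.

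CDKB2;1 encodes a B-type cyclin-dependent kinase, a class found in plants that works around the passage from G2 to mitosis. Its signals were 222.6, 185.6 and 248 in control replicates 1 to 3 and 65.7, 55.6 and 47.4 in PPA1 replicates 1 to 3. The groups were well apart, with the highest treated array far below the lowest control. CDKB2;1 fell by 1.96 on the log2 scale with a standard error of 0.23, a 3.90-fold fall (limma adjusted p = 0.0286, n = 3 each). The 95% interval of the change ran from 2.62-fold to 5.81-fold.

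AUR1 encodes an Aurora kinase, which phosphorylates histone H3 and is found on mitotic spindles and at the forming cell plate. Its signals were 235.8, 215 and 262 in the controls and 84.3, 80.6 and 77.3 after PPA1. The 3 treated arrays were close together, with a coefficient of variation of 4.32%, and the groups did not overlap. AUR1 fell by 1.55 on the log2 scale with a standard error of 0.19, or 2.94-fold (limma adjusted p = 0.0300). The mean signal after PPA1 was 34.0% of the control mean.

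KNOLLE encodes the syntaxin that fuses vesicles into the cell plate during cytokinesis, and its transcript accumulates in dividing cells. Its signals were 348, 429 and 562 in the controls and 86.9, 107.6 and 109.5 after PPA1. The controls varied more here, with a coefficient of variation of 24.2%, yet the lowest control was still more than 3 times the highest treated array. KNOLLE fell by 2.12 on the log2 scale with a standard error of 0.26, or 4.34-fold (limma adjusted p = 0.0298), and the mean signal after PPA1 was 22.7% of the control mean.

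These 3 calls did not stand in every fit. With replicate number as a blocking term, limma gave adjusted p values of 0.135 for KNOLLE, 0.135 for CDKB2;1 and 0.138 for AUR1, and that fit called 0 of all tested probe sets lower (3032, or 13.3%, at an unadjusted p under 0.05, with 5 of 6 members among them). A robust variance trend fitted together with the block gave 0.00500, 0.00808 and 0.00980, and 4.82% of all tested probe sets were then called lower. Leaving out any control array, or PPA1 replicate 2 or 3, ended all 3 calls (limma adjusted p from 0.0746 to 0.143), in fits that again called 0 probe sets (2133 to 2790 lower at an unadjusted p under 0.05). Without PPA1 replicate 1, 5 of 6 members were called lower, where 7.51% of all tested probe sets were. The same number of members was called with the constant of 32 added, where 5.93% of all tested probe sets were called lower, and with array weights, where 14.6% were. When 1 array was left out, the log2 changes ran from -2.28 to -1.94 for KNOLLE, from -2.08 to -1.85 for CDKB2;1 and from -1.62 to -1.48 for AUR1. With the constant of 32 they were -1.82, -1.51 and -1.26.

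**Figure D2:**
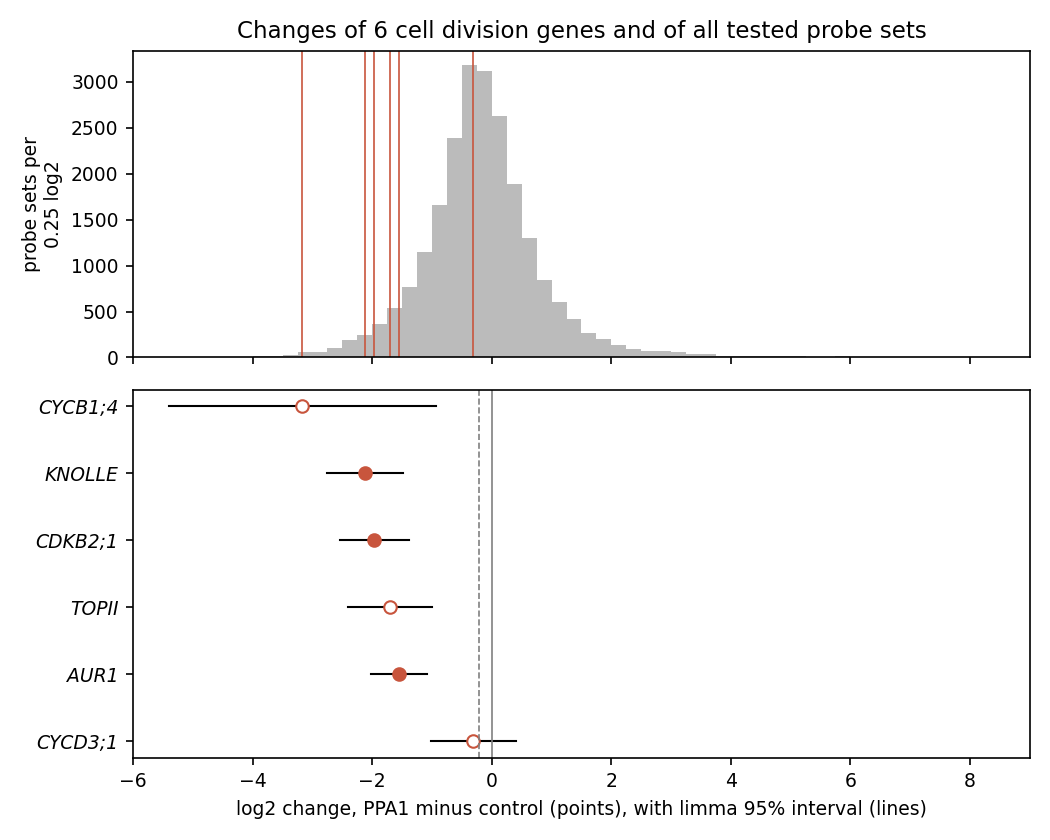
Upper panel, number of tested probe sets per 0.25 of log2 change (PPA1 minus control), with a red line at each of the 6 genes. Lower panel, the log2 change of each gene with its limma 95% interval, filled where the adjusted p was under 0.05, a solid line at 0 and a dashed line at -0.21, the median of all tested probe sets. KNOLLE, CDKB2;1, TOPII and AUR1 lie between -2.12 and -1.55, CYCB1;4 at -3.17 has the widest interval, and CYCD3;1 lies next to the overall median.

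Set among all tested probe sets, 5 of the members lay far down the lower side of the distribution. The share of tested probe sets with a lower log2 change than the member was 0.418% for CYCB1;4, 2.70% for KNOLLE, 3.52% for CDKB2;1, 5.32% for TOPII and 6.72% for AUR1, against 44.0% for CYCD3;1. The median log2 change of the 6 members was -1.83, beside -0.21 over all tested probe sets. Signals of the treated arrays were all below those of the controls in 5 of 6 members and in 20.1% of all tested probe sets. With each array centred on its median, which removes the overall shift, the log2 changes of KNOLLE, CDKB2;1 and AUR1 were -1.91, -1.75 and -1.34, all still called (limma adjusted p from 0.0338 to 0.0404).

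The order of the changes ran from CYCB1;4 through KNOLLE, CDKB2;1 and TOPII to AUR1. Differences among these 5 genes were not tested, and their separate 95% intervals overlap each other. The distance from CYCD3;1 was taken within arrays, which removes any scaling of an array. Relative to CYCD3;1 the log2 changes were -2.86 for CYCB1;4, -1.81 for KNOLLE, -1.66 for CDKB2;1, -1.40 for TOPII and -1.25 for AUR1. The control and PPA1 values of these differences did not overlap in any of the 5 pairs compared. The share of all tested probe sets with such a gap from CYCD3;1 was not computed. Each of these 5 genes had no overlap in its own signals either, and CYCD3;1, the member whose signals overlapped, is dim (11.4 to 22.5). A two-sided exact permutation test gave p = 0.1 for each, and 0.1 after Benjamini-Hochberg adjustment. That is the smallest value this test can reach with 3 arrays against 3, so it could not have passed 0.05 and says nothing either way, and the distances stand as a description.

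The treated arrays were also compared one by one with the control mean. Among 997 bright probe sets (mean log2 signal 6 or more) that were at least 2-fold below the control mean in both replicate 2 and replicate 3, the median distance from the control mean was -1.52 in those arrays and -0.77 in replicate 1. The selection by replicates 2 and 3 itself makes their distances larger, so by comparison replicate 1 lies nearer the control mean. For KNOLLE the distances of PPA1 replicates 1 to 3 from the control mean were -2.33, -2.02 and -1.999 on the log2 scale.

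For AUR1 the distances of PPA1 replicates 1 to 3 from the control mean were -1.49, -1.56 and -1.62, and for CDKB2;1 they were -1.73, -1.97 and -2.20. For TOPII they were -2.20, -1.43 and -1.49, for CYCB1;4 -5.29, -2.27 and -1.94, and for CYCD3;1 0.04, -0.38 and -0.58. Replicate 1 was thus the lowest treated array for KNOLLE, TOPII and CYCB1;4 and the highest for AUR1, CDKB2;1 and CYCD3;1. Expressed as a percentage of the mean distance of replicates 2 and 3, its distance was 116% for KNOLLE, 150.5% for TOPII and 252% for CYCB1;4. It was 94.0% for AUR1, 82.9% for CDKB2;1 and -8.10% for CYCD3;1. The median over the 997 probe sets was 48.4%, and 14.5% of them were at least as low in replicate 1 as in the mean of the others. The selection by replicates 2 and 3 lowers both of these figures. TOPII, CYCB1;4 and CYCD3;1 were not bright (mean log2 signals of 5.79, 3.97 and 3.94) and could not be among the 997. These percentages describe 1 array, with no test.

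**Figure D3:**
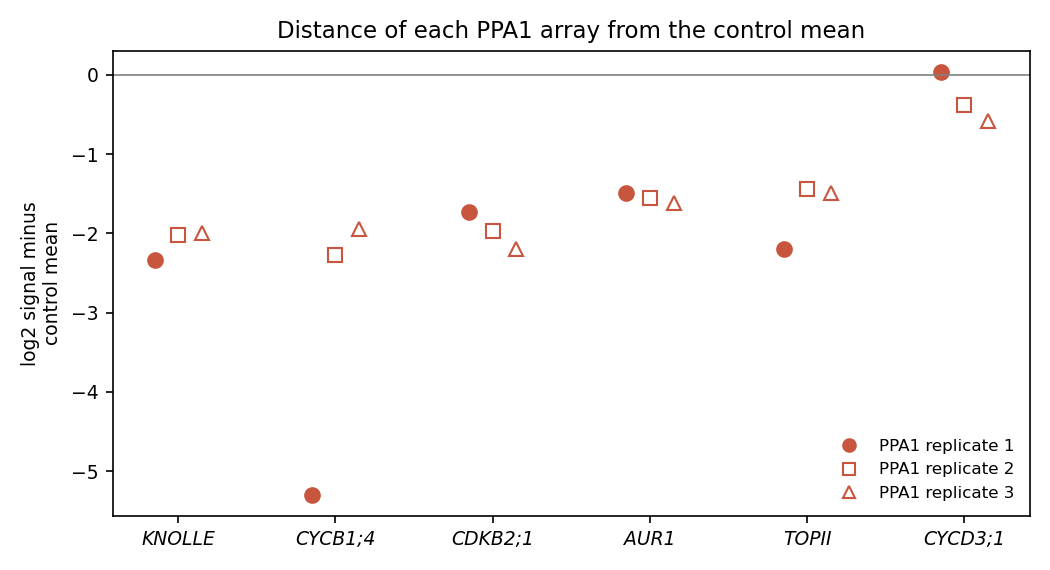
Log2 signal of each PPA1 array minus the mean log2 signal of the 3 controls, for each of the 6 genes, with replicate 1 filled and replicates 2 and 3 open. PPA1 replicate 1 is the lowest of the treated arrays for KNOLLE, CYCB1;4 and TOPII, at -2.33, -5.29 and -2.20, and the highest for CDKB2;1, AUR1 and CYCD3;1.

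The control arrays had a common order in most members. Control replicate 3 had the highest control signal in 5 of 6 members, and in 37.1% of all tested probe sets. Control replicate 2 had the lowest in 4 of 6 members, for which the share over all tested probe sets was not computed. With 3 controls this ordering is a description only.

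Related genes were looked up in the array's annotation table, which pairs only part of the probe sets with genes. Of a list of 46 cell cycle genes, 3 could be matched. AUR2, a close relative of AUR1, had signals of 75.3, 59.3 and 82.4 in the controls and 22.0, 32.3 and 39.4 after PPA1, which do not overlap. The log2 change of AUR2 was -1.24 (standard error 0.29, adjusted p = 0.0933 in limma). AUR3, the Aurora kinase of centromeric chromatin, had 50.96, 51.9 and 46.1, then 36.1, 29.0 and 27.9, and a log2 change of -0.69 with a standard error of 0.20. PRL (also called MCM7), a subunit of the replicative DNA helicase, had 79.7, 73.4 and 149.6, then 29.7, 148 and 83.3, which overlap, and a log2 change of -0.42 with a standard error of 0.65. In the main limma fit, the one behind the member calls, none of these 3 passed over all probe sets. There 2 of 3, the Aurora kinases, were lower at an unadjusted p under 0.05, against 14.8% of all tested probe sets.

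A wider list of 22 division genes named in that table, chosen by their names, includes those 3. In it, 1 gene was called lower and 0 higher, where 0.994% of all tested probe sets were called lower, and 10 of 22 were lower at an unadjusted p under 0.05 in limma, against 14.8%. The median log2 change was -0.69, beside -0.21 over all tested probe sets, and treated signals were all below the controls in 12 of 22, against 20.1%. The gene called was TUB7, a beta-tubulin, with signals of 568, 512 and 542 in the controls and 149, 201 and 204 after PPA1. Without the 7 tubulins, 0 of the other 15 genes were called, and 7 were lower at an unadjusted p under 0.05 in limma, against 14.8%. TUB7 fell by 1.56 on the log2 scale (standard error 0.22, adjusted p = 0.0378 in limma). The call ended with each array centred on its median (limma adjusted p = 0.0579) and with the replicate block (0.142), and closely related tubulin transcripts may share probes.

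Tubulins, the subunits of the spindle and of the phragmoplast that guides the cell plate, were otherwise uneven. TUB5 had a log2 change of -1.36, and TUB6, TUB9 and TUA6 had -0.69, -0.56 and -0.53, while TUB1 and TUA1 had -0.04 and -0.03. Treated and control signals did not overlap in 4 of 7 tubulins, the members TUB5, TUB6, TUB7 and TUB9, against 20.1% of all tested probe sets with treated signals all lower. The largest change in the wider list belonged to 3xHMG-box2, a protein that binds mitotic chromosomes. Its signals were 272, 262 and 468 in the controls and 27.8, 69.5 and 69.3 after PPA1, with no overlap. The log2 change was -2.65 with a standard error of 0.46, and the gene missed the threshold in limma (adjusted p = 0.0563) but passed with the robust variance trend (adjusted p = 0.00831). It was called in 9 of 19 alternatives and not, for example, with the replicate block (limma adjusted p = 0.135), median centring (0.0719) or quantile normalization (0.0640).

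Among genes of the spindle checkpoint, which holds chromosomes until they are attached, BUB3.1 and BUBR1 had log2 changes of -1.35 and -1.28 with no overlap between the conditions, while BUB3.2 had 0.06. HTR12, the histone H3 of centromeres, had -1.14 and KINESIN-12B, a motor of the phragmoplast, had -1.03, again with no overlap. Of the anaphase-promoting complex subunits, HBT had -0.69 with no overlap, though its unadjusted p was 0.070 in limma, and CDC27a had 0.19 with overlapping signals. SIM, an inhibitor of cyclin-dependent kinases, had -1.16 with overlapping signals. The DNA polymerase alpha subunit ICU2 and the condensin subunit ATSMC2 had -0.08 and 0.19, and the microtubule bundling protein ATMAP65-6 had -0.42. In the main limma fit, the one behind the member calls, none of these genes passed over all probe sets. BUB3.1 did with the robust variance trend (limma adjusted p = 0.0451) and with 32 added (0.0410). With array weights BUB3.1, BUBR1, HTR12 and KINESIN-12B passed (limma adjusted p from 0.0307 to 0.0486), where 14.6% of all tested probe sets were called lower. With dim probe sets (mean log2 signal under 4) left out, limma called 7 of the 20 list genes that remained lower, where 8.79% of the probe sets then tested were. These were 3xHMG-box2, AUR2, BUB3.1, BUBR1, KINESIN-12B, TUB5 and TUB7, with adjusted p from 0.00766 to 0.0481.

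**Figure D4:**
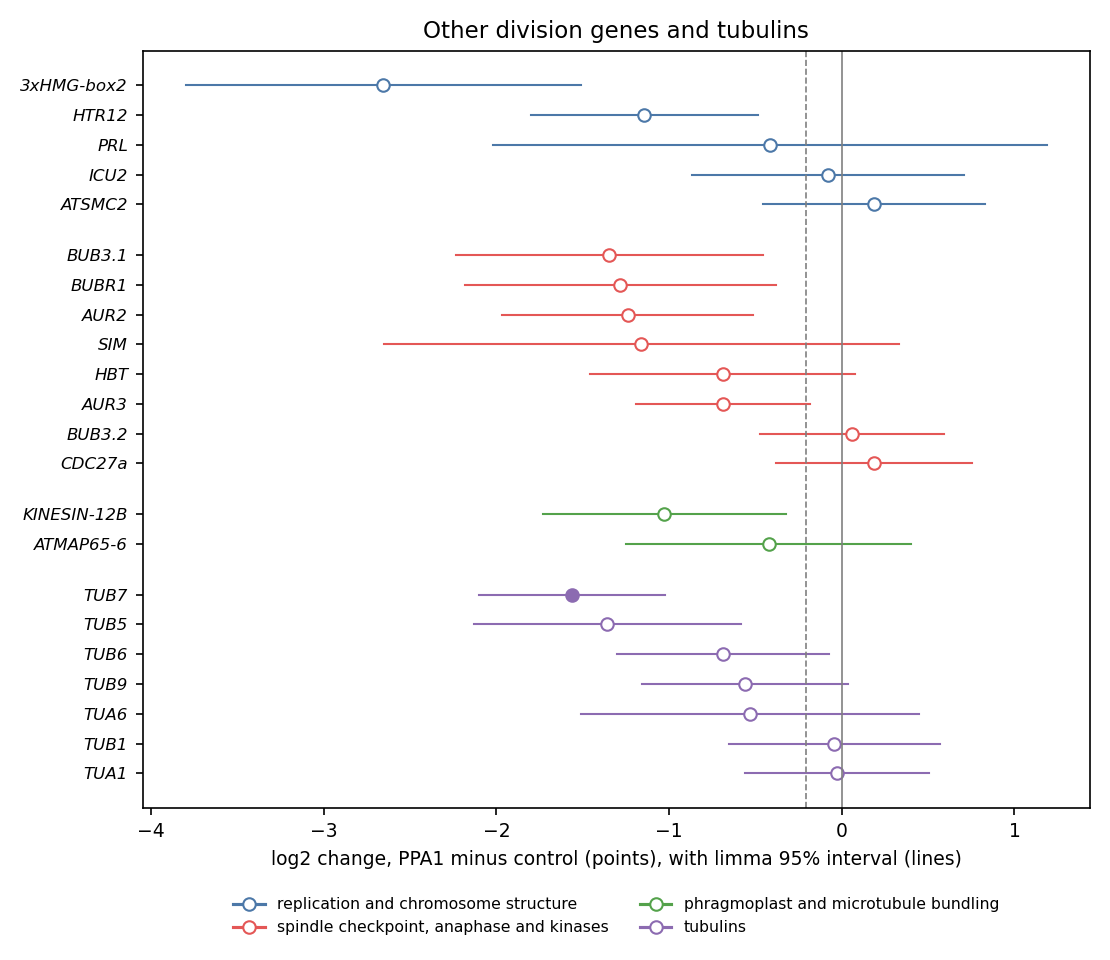
Log2 change (PPA1 minus control) with limma 95% interval for 22 other genes of cell division, coloured by group and filled where the adjusted p was under 0.05, with a solid line at 0 and a dashed line at -0.21, the median of all tested probe sets. TUB7 is the only filled point, and 3xHMG-box2 at -2.65 lies farthest from 0.

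Over the 6 arrays, the probe sets most like the mean log2 signal of the 6 members were 256908_at, which the annotation table assigns to AT3G24040, and 262451_at, which it does not list. Their Pearson correlations were 0.998 and 0.996, among 10132 other bright probe sets, of which 1.89% were above 0.95. The signals of 256908_at were 146, 150.1 and 159 in the controls and 86.5, 98.8 and 97.0 after PPA1, a much smaller range than that of the called members. Its log2 change was -0.69 (limma adjusted p = 0.112). The change of 262451_at was -1.49 (limma adjusted p = 0.0578). The member mean was not scaled by gene, so in PPA1 replicate 1 it carries the dim CYCB1;4 signal of 1.195, a log2 distance of -5.29. Both probe sets were lowest in that array (86.5 and 109.6), whereas AUR1, CDKB2;1 and CYCD3;1 had their highest treated signal there. The likeness to a mean without CYCB1;4 was not computed. All of these likenesses rest on 6 arrays that share 1 normalization and fall into 2 conditions.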

How the data were processed

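The deposited values are linear probe set intensities that the authors had normalized. GCRMA is named per the submitters' processing notes; any later step was not given there. Array medians ran from 42.04 to 51.2. Log2 signals were taken with no constant added, 64 manufacturer control rows were set aside, and 22746 probe sets were fitted with limma 3.58.1 in R 4.3.3 (lmFit, eBayes, two-sided, condition as the only term, Benjamini-Hochberg over all tested probe sets, threshold 0.05). Exact permutation tests used scipy 1.17.1, and figures matplotlib 3.10.9. The fit was also run on simulated data with independent normal noise of equal spread in both conditions. Those data held no differences between whole arrays, so that run does not bear on how the calls depend on single arrays. Probe sets with a mean log2 signal under 4 (a signal of 16) were treated as dim and those of at least 6 as bright. For arrays, the number of replicates limits the precision.

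The members and lists were chosen with earlier results of these data known. The rule for named items took all 6 members, the matched list genes and the 2 probe sets most like the members. The annotation table lists 14016 probe sets, 13513 with 1 gene symbol and 503 with several, and leaves 8730 tested ones unnamed. It names AUR1 and TOPII; the other 4 members were identified by the probe set and locus that define the group. The wider list of 22 genes was added after the first list matched 3 of 46.

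Alternatives covered scaling, limits on dim signals, an added constant of 32, the variance model, array weights, blocks and leaving out arrays. Same-numbered arrays of both conditions deviated together with r = 0.06, 0.03 and 0.02 over all tested probe sets and 0.16, 0.24 and 0.15 over bright ones. No label states what equal numbers have in common, so blocked values stand beside the calls.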

Additional observations from a re-analysis of the deposited data

How the results depend on the processing

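Counts are given as lower and higher, for all tested probe sets unless members are named. Against 226 and 184, limiting the fit to a mean log2 of 4 or more gave 1305 and 801, and of 6 or more 1046 and 802, adding 32 gave 1349 and 748, the robust variance trend 1171 and 791, and array weights 3324 and 2130. The replicate block gave 0 and 0 (limma, 3032 and 1768 at an unadjusted p under 0.05), with the robust variance trend 1096 and 833, and with the limit of at least 4 it gave 947 and 610. When 1 array was left out the counts ran from 0 to 1708 and from 0 to 1437; joined to the limit of at least 4, leaving out PPA1 replicate 1 gave 3415 and 2220. Replicates 2 and 3 alone, chosen after seeing the data like the block of replicate 1 against the others, gave 640 and 769. Median centring, quantile normalization and replicate 1 as a block stayed within 1.5 times (154 and 239, 182 and 205, 163 and 166), and with them rises were the larger group.

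Of the members, 3 were called lower, 5 with 32 added or with array weights, 0 under the replicate block (limma, 5 at an unadjusted p under 0.05), and 0 to 5 when 1 array was left out. The limits on dim signals removed CYCB1;4 and CYCD3;1, and that of at least 6 also TOPII, so these gave no value there. KNOLLE, CDKB2;1 and AUR1 were called in 13 of 19 alternatives each, TOPII in 8 of 18, CYCB1;4 in 4 of 15 and CYCD3;1 in 0 of 15 (limma adjusted p from 0.291 to 0.999). No direction changed, except that CYCD3;1 had 0.00097 under quantile normalization, and the cause was not tested. For members with every treated signal below every control, leaving out an array or adding a constant could not have changed the direction. Of the 22 other genes, 1 was called lower, where 0.994% of all tested probe sets were. Median centring, the replicate block (limma, 10 at an unadjusted p under 0.05) and replicate 1 as a block called 0. The limit of at least 4 kept 20 of these genes and called 7, where 8.79% of the probe sets then tested were called lower. That of at least 6 kept 9 and called 2, against 1046 of all 10135. Adding 32 called 5 (5.93% of all tested probe sets), the robust variance trend 5 (1171 of 22746) and array weights 9 (14.6%). The block joined to the trend called 5 (4.82%), and joined to the limit of at least 4 it called 6 of 20 (947 of 14850). Leaving out 1 array called 0 to 4, with 4 when PPA1 replicate 1 was left out (7.51%). Under the limit of at least 4 that fit called 8 of 20 (3415 of 14850).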
